A study of Mus musculus with 2 samples.

Results

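The SOX transcription factor genes of the SoxB1, SoxC, SoxD and SoxE groups were followed in neural stem cells that lacked or kept Hikeshi by label. The 10 genes were chosen by name, with earlier results of these data known. They were Sox1, Sox2 and Sox3 of SoxB1, Sox4 and Sox11 of SoxC, Sox5 and Sox6 of SoxD, and Sox8, Sox9 and Sox10 of SoxE. All 10 were found by symbol among the 15953 genes of the deposited table, and all 10 passed a filter of 1 CPM (reads per 1000000 reads counted) in at least 1 library, as did 12618 genes in all. Total RNA was sequenced from mouse neural stem cells in suspension culture, with 1 library labelled Hikeshi cKO (conditional knockout) and 1 library labelled wild type. Hikeshi is an import carrier for HSP70 chaperones, and the title of the series names proliferation and differentiation as its question. The labels do not state the age or strain of the mice, the driver of the deletion, the part of Hikeshi removed or the number of animals behind each culture.

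SOX proteins bind DNA through an HMG box, a fold that fits the minor groove and bends the helix, and they usually act with a partner factor that sits beside them. In the neural lineage the SoxB1 proteins keep cells as dividing progenitors. SoxC proteins take over in immature neurons, SoxE proteins start and carry the glial programmes, and SoxD proteins, which have no activation domain of their own, work together with or against SoxE.

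Depth was close to even, at 18912683 reads in the cKO library and 18839079 reads in the wild-type library. Hikeshi itself had 33.8 CPM in the library labelled cKO and 38.1 CPM in the library labelled wild type, a difference too small to settle the genotype. The cKO to wild-type ratio of the transcript length implied by its deposited reads and FPKM was 0.921, outside the range of 0.966 to 1.04 that held the central 95% of well-counted genes. The removed part is not stated, so every direction below is between libraries as labelled. Reads of 4 genes of the Y chromosome also lay almost only in the cKO library (Eif2s3y had 1265 reads there and 0 in the wild-type library), and Y-linked expression and the genotype label cannot be told apart. With 1 library per group there was no replicate and no test between genotypes. Every interval below is a 95% counting interval for these libraries. In bulk RNA, fewer cells of a type and less RNA per cell cannot be told apart.

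Promoter sequence is shown for Sox2 and Sox8, the most abundant SoxB1 and SoxE genes, and for Sox4 and Sox11, the SoxC pair that differed by unequal factors. Each line gives the 250 bases before the RefSeq start (GRCm38.p6), read 5′ to 3′ on the strand of the gene. These windows lie at chr3:34649745-34649994 (plus strand) for Sox2, chr17:25570687-25570936 (minus) for Sox8, chr13:28953700-28953949 (minus) for Sox4 and chr12:27342719-27342968 (minus) for Sox11. Capitals mark matches, on either strand, to the SOX core written as ACAAAG or ACAATG, the CCAAT box (CCAAT), the GC box (GGGCGG), the TATA box (TATAAA), the hypoxia response core (ACGTG) and the heat shock element (GAANNTTC).
Sox2: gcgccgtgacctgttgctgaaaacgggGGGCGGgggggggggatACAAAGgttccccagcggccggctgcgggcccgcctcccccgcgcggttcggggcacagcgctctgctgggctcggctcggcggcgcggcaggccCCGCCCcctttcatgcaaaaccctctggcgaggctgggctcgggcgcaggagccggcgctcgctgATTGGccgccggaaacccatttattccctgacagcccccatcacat
Sox8: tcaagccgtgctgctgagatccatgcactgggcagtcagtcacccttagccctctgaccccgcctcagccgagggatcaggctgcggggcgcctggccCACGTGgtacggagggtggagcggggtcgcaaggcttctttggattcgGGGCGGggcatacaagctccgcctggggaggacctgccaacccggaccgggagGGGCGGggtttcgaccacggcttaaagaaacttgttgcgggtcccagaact
Sox4: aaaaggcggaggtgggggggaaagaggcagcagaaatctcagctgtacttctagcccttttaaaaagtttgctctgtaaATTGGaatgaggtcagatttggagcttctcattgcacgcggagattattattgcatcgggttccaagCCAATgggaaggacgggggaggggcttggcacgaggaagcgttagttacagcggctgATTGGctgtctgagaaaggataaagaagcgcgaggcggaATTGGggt
Sox11: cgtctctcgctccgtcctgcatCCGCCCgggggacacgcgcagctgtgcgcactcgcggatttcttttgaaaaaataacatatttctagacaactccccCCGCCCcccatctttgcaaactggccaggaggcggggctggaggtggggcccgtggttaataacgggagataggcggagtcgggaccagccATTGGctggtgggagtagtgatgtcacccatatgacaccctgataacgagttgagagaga

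In these windows Sox2 held a SOX core 206 bases before its start, a pair of GC boxes and a CCAAT box 46 bases before the start. Sox8 held overlapping hypoxia cores on both strands, in the palindrome CACGTG, at 152 and 151 bases before the start, and GC boxes at 104 and 51 bases. In Sox4 there were 4 CCAAT boxes and no GC box. In Sox11 there was 1 CCAAT box, 60 bases before the start, and a pair of GC boxes. CpG pairs numbered 27 in Sox2, 18 in Sox8, 11 in Sox4 and 17 in Sox11, where the median of 32851 RefSeq promoters was 6. RefSeq promoters were given for 7 of the 10 genes (Sox1, Sox2, Sox4, Sox5, Sox6, Sox8 and Sox11), 12 windows in all, because Sox6 has 6 annotated starts. Of those 12 windows, 6 held ACAAAG, 3 held ACAATG, 6 held CCAAT, 5 held GGGCGG, 1 held TATAAA, 2 held ACGTG and 0 held GAANNTTC. Among all promoters these letters were present in 16.5% (ACAAAG), 10.7% (ACAATG), 33.8% (CCAAT), 32.7% (GGGCGG), 12.4% (TATAAA), 16.6% (ACGTG) and 6.69% (GAANNTTC). The windows of Sox6 share a gene, and they were 5 of the 6 with ACAAAG and 2 of the 3 with ACAATG. The other window with ACAATG was the only one of Sox5, chr6:143947107-143947356 (minus strand). It lay well inside that gene, whose 5′ end is at 144782287.

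In outline, every SoxE and SoxD gene lay below 1 in its ratio of the cKO to the wild-type library, and the chosen SoxB1 and SoxC genes were at similar or higher levels. Of the 10 genes, 4 (Sox6, Sox8, Sox9 and Sox10) were at least 1.5-fold lower, where 10.2% of all kept genes were. Sox11 alone was at least 1.5-fold higher, where 4.22% of all kept genes were. These counts use log2 of the CPM ratio after adding 1 CPM to each library, a scale that understates low genes. On that scale the median of the 10 genes was -0.28, beside -0.02 over all kept genes. Sox1 and Sox5 lay just short of 1.5-fold and Sox11 just past it, with log2 differences of 0.56, -0.54 and 0.59, so their side of that line has little weight. Sox10 was the only one of the 10 at least 2-fold lower, a distance that 3.85% of kept genes reached. Sox6, at -0.96, lay just short of that line, so its side has little weight too.

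**Figure D1:**
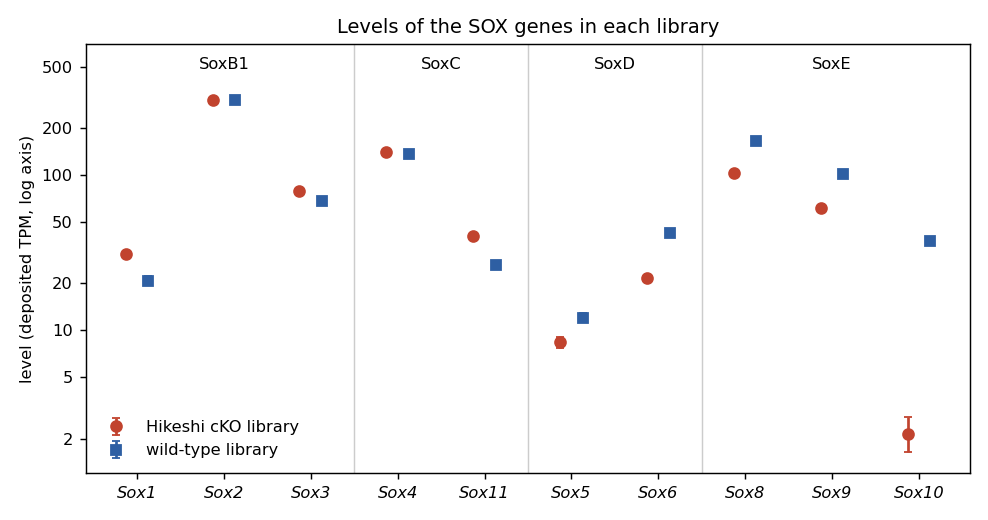
Levels of the 10 SOX genes as deposited TPM (transcripts per 1000000, which is per length) on a log axis, ordered by group, with the Hikeshi cKO library as circles and the wild-type library as squares. Bars are 95% Poisson counting intervals. Sox2 is at 304 and 305 TPM, while Sox10 is at 2.15 TPM in the cKO library and 37.4 TPM in the wild-type library.

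By length-corrected level, Sox2 led in both libraries. In the cKO library the order of deposited TPM was Sox2, Sox4, Sox8, Sox3, Sox9, Sox11, Sox1, Sox6, Sox5 and Sox10. The wild-type order was Sox2, Sox8, Sox4, Sox9, Sox3, Sox6, Sox10, Sox11, Sox1 and Sox5. No neighbours in either order had overlapping counting intervals, although the spread between cultures is unknown. Sox10 was last in the cKO library and stood above Sox11, Sox1 and Sox5 in the wild-type library. Among all genes of the table, Sox2 ranked 518 by TPM in the cKO library and 526 in the wild-type library, and Sox10 ranked 11072 and 4185.

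The makeup of the SOX pool differed accordingly. SoxB1 genes held 52.3% of the summed TPM of the 10 genes in the cKO library and 43.0% in the wild-type library. SoxC held 22.8% in the cKO library and 17.8% in the wild-type library, and SoxD 3.8% and 5.9% in the same order of libraries. SoxE held 21.1% in the cKO library, against 33.3% in the wild-type library. The summed TPM of all 10 was 791 in the cKO library and 917 in the wild-type library.

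The SoxB1 genes were level or somewhat higher in the library labelled cKO. Sox2 (chr3:34649995-34652461), the central pluripotency and neural stem cell factor, had 7633 reads in the cKO library and 7659 reads in the wild-type library, or 404 and 407 CPM. Its ratio of 0.993 had an interval of 0.962 to 1.02, which leaves room for only small differences by counting. Sox3 (chromosome X, 60891366 to 60893430), which acts beside Sox2 in progenitors, had 1617 reads (cKO) and 1380 reads (wild type). This is a ratio of 1.17 (1.09 to 1.26). Sox1 (chr8:12395519-12399555), one of the earliest markers of the neural plate, had 1338 reads in the cKO library and 900 reads in the wild-type library, a ratio of 1.48 (1.36 to 1.61).

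Within SoxB1 the factors were therefore unequal. Sox1 had 0.175 reads per read of Sox2 in the cKO library and 0.118 in the wild-type library, a ratio of ratios of 1.49 (1.36 to 1.63). This measure does not depend on how the libraries are scaled. Summed, SoxB1 had 10588 reads in the cKO library and 9939 reads in the wild-type library, a ratio of 1.06 (1.03 to 1.09), and Sox2 carried 73.4% and 77.5% of the summed TPM of its group.

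Of the SoxC genes, Sox4 was level and Sox11 higher. Sox4 (chr13:28948919-28953699), broadly made by progenitors and young neurons, had 7264 reads in the cKO library and 7126 reads in the wild-type library. With 384 and 378 CPM its ratio was 1.02 (0.983 to 1.05). Sox11 (chr12:27334268-27342718), a factor of immature neurons, had 3812 reads (cKO) and 2508 reads (wild type), or 202 and 133 CPM. That of Sox11 was 1.51 (1.44 to 1.59). Reads of Sox4 per read of Sox11 were 1.91 in the cKO library and 2.84 in the wild-type library, a ratio of ratios of 0.671 (0.631 to 0.712). The summed ratio of Sox4 and Sox11 was 1.15 (1.11 to 1.18), and with Sox12, the remaining SoxC gene, it was 1.09 (1.06 to 1.12).

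**Figure D2:**
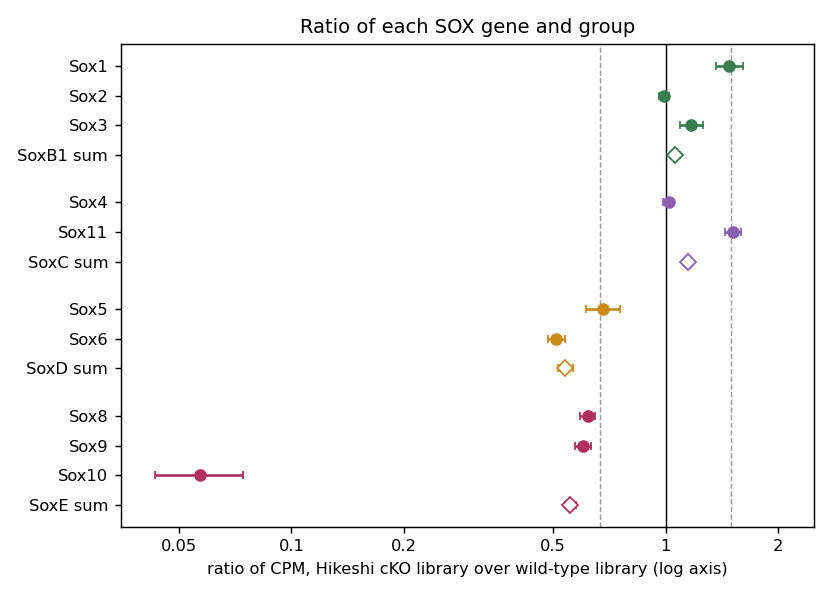
Ratio of CPM, Hikeshi cKO library over wild-type library, on a log axis, for each gene (filled circles) and for the summed reads of each group (open diamonds), with 95% counting intervals. Dashed lines mark 1.5-fold in either direction. SoxD and SoxE lie left of 1, and Sox10, at 0.0571, lies far from every other gene.

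Both SoxD genes were below their wild-type level in the cKO library. Sox6 (chr7:115470872-116040776), which holds oligodendrocyte precursors back from maturing, had 2092 reads in the cKO library and 4084 reads in the wild-type library. At 111 and 217 CPM it was 1.96-fold lower (1.86 to 2.07). Sox5 (chr6:143828425-144782287), its close relative with a part in deep-layer cortical neurons, had 599 reads (cKO) and 876 reads (wild type) and was 1.47-fold lower (1.32 to 1.63). The distance was larger for Sox6 than for Sox5, with a Sox5 to Sox6 ratio of ratios of 1.33 (1.19 to 1.5). SoxD reads summed to 2691 in the cKO library and 4960 in the wild-type library, which is 1.85-fold lower (1.77 to 1.94).

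Sox5 and Sox6 are long genes with several transcripts of unlike length. The length implied by the deposited reads and FPKM (fragments per kilobase and per 1000000 fragments) was compared between the libraries. The cKO to wild-type ratio of implied length was 0.981 for Sox5 and 0.997 for Sox6, inside the range of 0.966 to 1.04 that held the central 95% of 6911 genes with at least 500 reads in both libraries. For the other 8 genes the ratio lay between 0.997 and 1.

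All of SoxE was lower in the cKO library, and Sox10 by a larger factor than Sox8 and Sox9. Sox8 (chr17:25565893-25570686), which overlaps in function with Sox9 and Sox10, had 3237 reads in the cKO library and 5207 reads in the wild-type library. It was 1.61-fold lower (1.55 to 1.69). Sox9 (chr11:112782210-112787757), which sets neural stem cells on the glial path and persists in astrocytes, had 2725 reads (cKO) and 4512 reads (wild type), and was 1.66-fold lower (1.58 to 1.74). Sox10 (chr15:79154913-79164490), the SoxE factor that switches on myelin genes in oligodendrocytes, had 60 reads in the cKO library and 1046 reads in the wild-type library. Its level of 3.17 CPM (2.42 to 4.08) in the cKO library, against 55.5 CPM (52.2 to 59) in the wild-type library, was 17.5-fold lower (13.5 to 23.1).

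Sox8 and Sox9 differed by nearly the same factor. Reads of Sox8 per read of Sox9 were 1.19 in the cKO library and 1.15 in the wild-type library, a ratio of ratios of 1.03 (0.964 to 1.1). Against Sox10, by contrast, the ratio of ratios was 10.8 (8.32 to 14.4) for Sox8 and 10.5 (8.07 to 14) for Sox9. Sox10 made up 1.3% of the summed TPM of SoxE in the cKO library and 12.3% in the wild-type library. The summed SoxE reads, 6022 in the cKO library and 10765 in the wild-type library, were 1.79-fold lower (1.74 to 1.85).

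**Figure D3:**
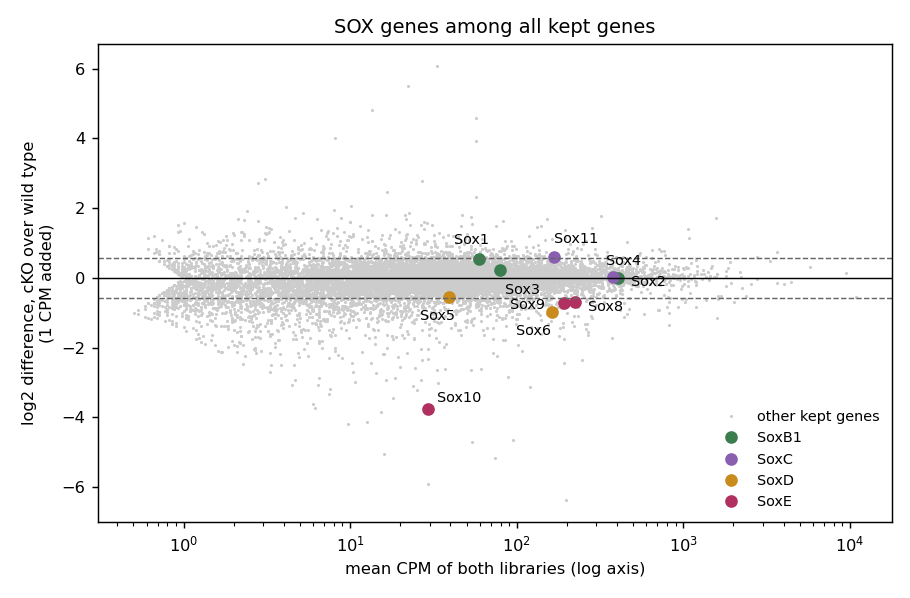
Log2 difference, cKO over wild type with 1 CPM added, against the mean CPM of both libraries on a log axis, for all 12618 kept genes (grey) and the 10 SOX genes (coloured by group). Dashed lines mark 1.5-fold. Sox10 lies at -3.76 while Sox2 and Sox4 lie at -0.01 and 0.02 among the abundant genes.

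Markers of the glial cell types in which SoxE genes are high were lower in the same library. The oligodendrocyte lineage list had 14 kept markers, 11 of them at least 1.5-fold lower and 0 of them higher, beside 10.2% and 4.22% of all kept genes. Of those 11, Mag and Enpp6 passed the filter through the wild-type library alone, which fixed the direction of their difference but not its size. Mobp and Mog were too low to be kept, with 0 and 3 reads (cKO) and 6 and 7 reads (wild type). The 16 markers listed summed to 1986 TPM in the cKO library and 2745 TPM in the wild-type library. Olig1 and Olig2, factors of the lineage that cultured progenitors also make, accounted for most of that sum: Olig2 was at 601 TPM (cKO) and 646 TPM (wild type). Mbp, the myelin basic protein gene, had 58 reads in the cKO library and 1974 reads in the wild-type library. All 10 astrocyte markers were at least 2-fold lower, beside 3.85% of all kept genes, with sums of 821 TPM (cKO) and 1920 TPM (wild type), 0 of them at 0 reads in either library. Gjb6 was the 1 astrocyte marker that passed through the wild-type library alone, which fixed the direction of its difference but not its size. Aldh1l1 and Aldoc lay just past 2-fold, with ratios of 0.496 (0.484 to 0.508) and 0.486 (0.473 to 0.5). Their side of that line therefore has little weight. Gfap, the astrocyte filament gene, was at 54.4 TPM in the cKO library and 278 TPM in the wild-type library. The part of these cell types in the SoxE and SoxD differences was not tested.

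Markers of stem cells and neurons went both ways. Of 12 stem and radial glia markers, 1 was at least 1.5-fold higher and 4 were lower, beside 4.22% and 10.2% of all kept genes. Their sums were 10299 TPM (cKO) and 10992 TPM (wild type), but 152401 reads (cKO) and 136306 reads (wild type), so the direction of the sum depends on the unit. The higher one was Vim, an intermediate filament of progenitors, at a ratio of 1.69. The lower ones were Hes5, Prom1, Slc1a3 and Fabp7, with ratios of 0.39, 0.52, 0.65 and 0.661. Slc1a3 and Fabp7 lay just past 1.5-fold, with log2 differences of -0.62 and -0.60, so their side of that line has little weight. With TMM or median-of-ratios scaling, described below, 3 markers of this list were lower. Of 11 kept neuron and neuroblast markers, 3 were higher and 2 lower, against the same background. The 12 listed summed to 790 TPM and 19326 reads in the cKO library and to 562 TPM and 18300 reads in the wild-type library. Gap43, a growth cone gene, was at 535 TPM (cKO) and 273 TPM (wild type), a gap wider than that of the whole list. The lower ones were Dcx, at 0.79 TPM (cKO) and 8.14 TPM (wild type), and the synaptic gene Snap25, at 21.3 TPM (cKO) and 36.8 TPM (wild type).

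Sox10 is also made by neural crest and Schwann cells. Of their markers 4 were kept, 1 of them (Mitf) higher and 0 lower, beside 4.22% and 10.2% of all kept genes. Their summed reads were 617 in the cKO library and 664 in the wild-type library. Counts this small, here and for the cell types below, cannot be set apart from that background. Foxd3, Tfap2b and Pax3 were not listed. None of 8 microglia markers was kept, their reads summing to 6 (cKO) and 7 (wild type). Of the endothelial and pericyte markers 4 were kept, with summed reads of 250 in the cKO library and 233 in the wild-type library, and the 1 lower, Pdgfrb, lost that call with deposited TPM, at 5 CPM and with 5 CPM added. Ependymal and choroid plexus markers had 3 kept members. The 2 that were lower, Aqp1 and Rsph1, passed the filter through the wild-type library alone, and 0 were lower at 5 CPM or with 5 CPM added. Those markers had summed reads of 206 in the cKO library and 285 in the wild-type library.

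The rest of the SOX family was sparse. Of 10 other SOX genes looked for, 7 were listed and 4 kept. Of those 4, 2 (Sox21 and Sox7) were at least 1.5-fold higher and 0 lower, beside 4.22% and 10.2% of all kept genes. With so few genes, these counts say little of the rest of the family. Sox21, a SoxB2 factor that counteracts SoxB1 proteins and promotes exit from the progenitor state, had 1914 reads in the cKO library and 1114 reads in the wild-type library. Its ratio was 1.71 (1.59 to 1.84). Sox12 had 1268 reads (cKO) and 1646 reads (wild type), a ratio of 0.767 (0.713 to 0.826), on the other side of 1 from Sox11. Sox13, the remaining SoxD gene, had 68 reads in the cKO library and 82 in the wild-type library, a ratio of 0.826 (0.59 to 1.15) whose interval includes 1. Sox7, a SoxF factor best known from endothelium, had 91 reads (cKO) and 27 reads (wild type), a ratio of 3.36 (2.16 to 5.37). Sox15, Sox18 and Sox30 had at most 4 reads in a library.

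Partners of SOX proteins were counted against the background of 4.22% of kept genes higher and 10.2% lower. Of 20 kept partner transcription factors, such as the POU factors that pair with SOX2 and the NFI factors that pair with SOX9, 1 was higher and 1 lower, and the median log2 difference was 0.01. The lower one was Myrf, the partner of SOX10 at myelin genes, with 115 reads in the cKO library and 620 reads in the wild-type library, a ratio of 0.185 (0.15 to 0.226). The higher one was Mitf, a melanocyte factor that SOX10 controls, at 143 reads (cKO) and 72 reads (wild type), a ratio of 1.98 (1.48 to 2.66). Of 16 genes for SOX protein modifiers, coregulators and import factors 0 were 1.5-fold apart, where 14.4% of kept genes were, with a median of 0.12. Among them Kpnb1, the importin that carries SOX9 and SRY into the nucleus, had a ratio of 1.17 (1.14 to 1.21).

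Genes described as targets of each SOX group were counted next. These lists were drawn from general knowledge in various tissues, not from binding in these cells. They were also chosen with earlier results of these data known, so their counts are not independent of these data. Of 10 kept targets of SOXB1, 2 were higher and 1 lower, and the median was 0.25; with 4.22% and 10.2% of all kept genes past those lines, such small counts say little of the list. Shh, the ventral patterning signal, had 203 reads in the cKO library and 71 reads in the wild-type library, a ratio of 2.85 (2.16 to 3.79), and the other higher one was Sox21. Hes5, a NOTCH effector of progenitors, had 317 reads (cKO) and 810 reads (wild type), a ratio of 0.39 (0.341 to 0.444). Nes, the progenitor filament nestin, lay at a ratio of 1.37 (1.34 to 1.41).

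Of 7 kept targets of SOXC, 1 was higher and 1 lower, and the median was 0.12. These counts are likewise too small to set apart from the same background. Dcx, a microtubule protein of migrating neuroblasts, had 80 reads in the cKO library and 824 reads in the wild-type library and was 10.3-fold lower (8.21 to 13.2). Sema3c, a guidance signal, had 191 reads (cKO) and 62 reads (wild type), a ratio of 3.07 (2.29 to 4.16). Tubb3, the neuronal tubulin, lay at 0.829 (0.714 to 0.962).

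**Figure D4:**
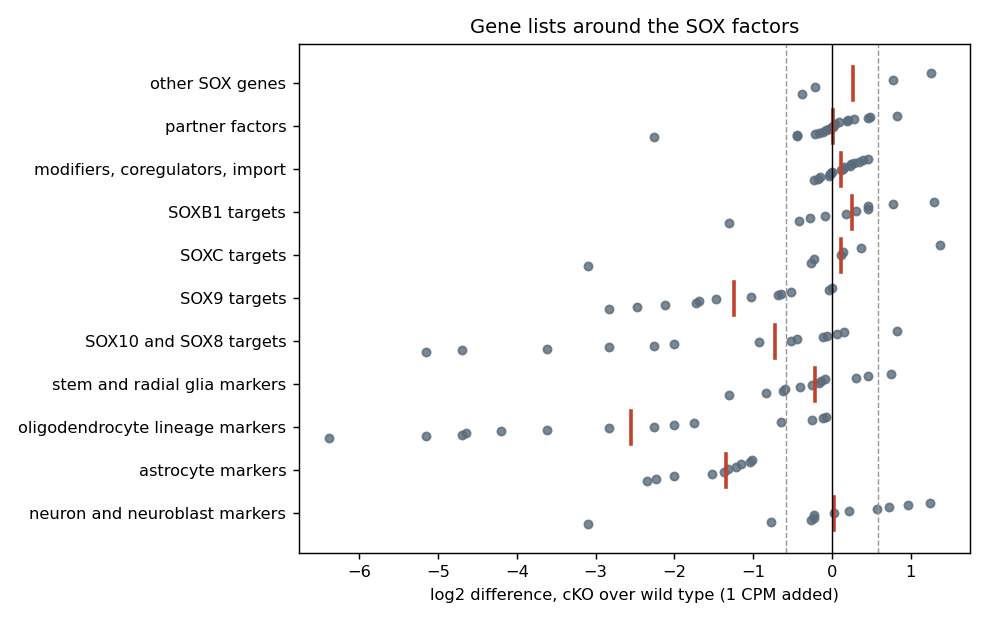
Log2 difference, cKO over wild type with 1 CPM added, of each kept gene (points) in the lists around the SOX factors, with the median of each list as a vertical bar and dashed lines at 1.5-fold. The SOX9 target median is -1.25 and the SOX10 and SOX8 target median is -0.72, while partner factors have a median of 0.01. The SOX9 target points include 4 genes, and the SOX10 and SOX8 target points 1, that passed the filter through the wild-type library alone.

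Several genes described as SOX9 targets lay lower in the cKO library. The list for SOX9, with or without SOX5 and SOX6, had 12 kept genes, of which 9 passed 1.5-fold downward and 0 upward, beside 10.2% and 4.22% of all kept genes, and its median was -1.25 beside -0.02. Of those 9, the 4 collagen genes Col9a1, Col2a1, Col9a2 and Col11a2 passed the filter through the wild-type library alone. That fixed the direction of their difference but not its size. The median was -0.67 with no filter. At 5 CPM 5 genes of the list were lower, where 879 of all genes were, against 1290 at 1 CPM. Col9a1 was among those 5 and again passed through the wild-type library alone, at 0.317 CPM (cKO) and 6.37 CPM (wild type). Pdgfra, the growth factor receptor of oligodendrocyte precursors, had 396 reads in the cKO library and 2926 reads in the wild-type library, a ratio of 0.135 (0.121 to 0.15). Among the cartilage collagen genes of the list, Col9a1 had 6 reads (cKO) and 120 reads (wild type), Col2a1 3 and 76, and Col9a2 15 and 93, in the same order of libraries. Col9a3 had more, with 226 reads (cKO) and 479 reads (wild type). Among glial targets, named like Col9a3 and Col11a2 after their values were seen, Mmd2 was at 120 TPM in the cKO library and 337 TPM in the wild-type library, whereas Nfia, the gliogenic partner of SOX9, was at 19.8 and 20.3 TPM and Apcdd1 had 89 reads in each. Without the gene that is also a cell type marker above, 8 of 11 were lower. Those 8 still include the 4 collagen genes that passed the filter through the wild-type library alone. Of the 8 genes of the whole list with at least 1 CPM in both libraries, 5 were lower.

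The list for SOX10 and SOX8 had 14 kept genes, 7 of them lower and 1 higher, beside 10.2% and 4.22% of all kept genes. The higher gene, Mitf, was also the higher one among the partner factors and the neural crest markers. The median of this list, -0.72, was -0.45 with no filter and -1.47 at 5 CPM. Mag, a myelin glycoprotein gene that passed the filter through the wild-type library alone, had 1 read (cKO) and 225 reads (wild type), a ratio of 0.00443 (0.000112 to 0.0249). For comparison, Sox10 itself was at 0.0571. Of these 14 genes 9 also stand in the cell type lists above, and they include 6 of the 7 lower ones. Of the 5 that do not (Sufu, Ret, Aatk, Ednrb and Egr2, named after their values were seen), 1 was lower, which was Aatk at a ratio of 0.514 (0.457 to 0.577), and their median was -0.11. Ednrb, a receptor gene that SOX10 controls in neural crest, had 6786 reads in the cKO library and 7066 in the wild-type library.

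RefSeq places long noncoding genes over Sox1, Sox2, Sox4, Sox5 and Sox6 (such as Sox1ot and Sox2ot, which hold Sox1 and Sox2 within them). None of the 11 overlapping genes is in the deposited table, and the strand setting is not given, so their reads cannot be told from those of the SOX genes. No annotated gene overlaps Sox3, Sox8, Sox9, Sox10 or Sox11.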

How the data were processed

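Each library was matched to its column by the genotype in the column name. The authors deposited estimated counts of reads per gene (named read counts per the file headers), of which 89.8% in the cKO and 90.0% in the wild-type library were whole. The deposited TPM and the deposited FPKM are named so per the file headers, and a further deposited signal is called a normalized read count there. The genome build named is GRCm38.p6 per the submitters' processing notes, while the aligner, counter, gene models and strand setting were not given in the sources used here.

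Estimated counts were rounded to whole reads and divided by column totals. Ratios carry exact conditional binomial intervals, levels exact Poisson intervals and pairs exact conditional odds-ratio intervals (95%, scipy 1.17.1). No molecular identifiers mark single molecules, so intervals cover counting error only and can be too narrow. The scripts were tested on simulated data. Coordinates and promoters came from RefSeq by gene number (10 of 10 genes for coordinates).

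Alternatives were TMM (edgeR 4.0.16) and median-of-ratios scaling, totals without genes among the 10 most abundant of either library, deposited values, filters and added CPM. The SOX genes and the gene lists were chosen with earlier results of these data known. Named from each list were up to 4 genes per direction with the largest log2 difference among those at least 1.5-fold apart and with at least 50 reads in the higher library, together with all SOX genes and Nes, Gfap, Olig2, Mbp, Tubb3, Dcx, Kpnb1 and Hikeshi; not every gene under this rule is reported here, and genes of the lists outside it were chosen after their values were seen.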

Additional observations from a re-analysis of the deposited data

How the results depend on the processing

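The ratios of the 10 SOX genes stayed inside their counting intervals under all 6 alternatives of scaling, rounding and unit, Sox10 ranging from 0.0571 to 0.058 and Sox2 from 0.993 to 1.01. Of the group sums, that of SoxC was 1.1 with deposited TPM against 1.15, since TPM gives the long transcript of Sox11 less weight. With Sox12, an alternative chosen after seeing the data, the SoxC sum was 1.09. The ratios of ratios stayed inside their intervals with deposited TPM. With 5 CPM added, 0 SOX genes were 1.5-fold higher (Sox11 no longer), and over all genes 304 were higher and 674 lower, against 532 and 1290. The same addition left 0 partner factors and 0 SOX10 and SOX8 targets higher, against 1 each, and gave the SOX9 targets a median of -0.76. With no filter, 2 partner factors and 2 SOXC targets were higher, against 1 each, and medians were -0.07 for the other SOX genes (against 0.27), -0.67 for SOX9 targets and -0.45 for SOX10 and SOX8 targets. Over all genes, 550 were higher and 1338 lower with no filter, and 421 and 879 with a filter of 5 CPM. That filter of 5 CPM left 1 other SOX gene higher against 2, and 5 SOX9 targets lower against 9. It gave medians of -1.03 and -1.47 for the SOX9 and the SOX10 and SOX8 targets. Deposited TPM gave those lists -0.98 and -0.92. Among medians that moved by 0.1 or more, besides the other SOX genes, 2 marker lists near 0 changed the sign of their median, the neuron list (0.03, but -0.10 with no filter) and the endothelial and pericyte list (-0.02, but 0.18 with no filter and 0.54 at 5 CPM). In all, 19 of 238 counts moved by more than 1.5 times or to or from 0, and 20 of 112 medians by 0.1 or more. Where no cause is named, the cause was not tested. No paired analysis was possible because each group had 1 library. With 1 library per group no replicate could be left out, and depth limits genes of few reads, such as Mag, Sox7 and Sox13.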
